A study of Saccharomyces cerevisiae with 18 samples.

Results

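The mRNAs that encode the proteins of the small cytosolic ribosomal subunit of budding yeast were followed through purified nuclear pore complexes, their background purifications and the total extract. The members are the genes named RPS with a number and an optional A or B, plus ASC1, and they make up 57 of the 7127 features counted. All 57 passed the filter on low counts, among 6429 genes tested. 9 of them are single-copy genes, among them RPS2, RPS3, RPS12, RPS20, RPS31 and ASC1, and the other 48 form 24 pairs of A and B copies.

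The small subunit binds mRNA, scans for the start codon and reads the codons against tRNA. Its proteins are made in the cytoplasm in equal amounts. Most are imported into the nucleus for assembly and exported again through the nuclear pore as part of the pre-ribosome. Their genes are short and are transcribed at very high rates in growing cells, and 37 of the 57 hold an intron. The nuclear basket is the filament structure on the nucleoplasmic side of the pore, where export-ready mRNA docks.

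All 18 libraries came from strain W303 in log-phase asynchronous culture in YPD, ground frozen, with RNA extracted in Trizol and selected for poly(A). Each of 6 groups had 3 libraries. IgG was the matrix for basket-containing pores, with the PrA control as its background purification. A GFP nanobody was the matrix for basket-less pores and for all NPCs (nuclear pore complexes of every kind), with the GFP control as its background purification. The input is the extract before purification. Which proteins carried the tags is not stated in the labels. Nor do the labels say that replicates were separate cultures, so each p-value reflects library-to-library spread alone, possibly of technical origin. Basket-containing pores also differ in matrix from basket-less pores and from all NPCs. In a direct comparison with either, kind of pore and matrix cannot be told apart.

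Library totals ran from 10592840 to 16620246 counts. Levels are in CPM, a gene's counts relative to the library total after scaling by TMM (trimmed mean of M-values) factors. They are shares within a library, so a smaller share and a smaller amount of the mRNA per pore cannot be told apart. Replicates differed by more than counting error, with a chi-square per degree of freedom from 1.57 to 19.4. The highest values, 17.8 and 19.4, belonged to replicate 3 of the PrA control against the other two. Without that library no count of members called moved by over 1.5 times.

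A and B copies often encode nearly the same protein, so the letters that separate their mRNAs decide how well reads can be assigned. 9 of the 24 pairs encode identical proteins. In 9 pairs every 50-base window of the coding sequence is found in 1 copy alone, and in 20 pairs every 100-base window is. The sequences below are the 72-base coding windows with the most differing bases for the pairs on which the results turn, from the RefSeq R64 reference (strain S288C, not W303), on the coding strand, with capitals at the bases that differ between the copies. The first 8 belong to RPS27, RPS25, RPS26 and RPS7, the pairs described in most detail with the copies.
RPS27A: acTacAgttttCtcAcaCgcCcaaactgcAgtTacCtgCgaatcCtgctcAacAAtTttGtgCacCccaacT
RPS27B: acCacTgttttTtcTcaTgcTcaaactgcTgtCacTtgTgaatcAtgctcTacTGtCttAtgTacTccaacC
RPS25A: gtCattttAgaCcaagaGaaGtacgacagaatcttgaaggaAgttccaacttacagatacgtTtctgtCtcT
RPS25B: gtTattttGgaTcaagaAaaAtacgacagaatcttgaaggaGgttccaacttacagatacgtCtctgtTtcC
RPS26A: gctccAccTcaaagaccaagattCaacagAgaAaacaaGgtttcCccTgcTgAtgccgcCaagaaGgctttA
RPS26B: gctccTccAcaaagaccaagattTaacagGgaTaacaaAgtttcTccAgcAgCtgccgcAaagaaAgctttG
RPS7A: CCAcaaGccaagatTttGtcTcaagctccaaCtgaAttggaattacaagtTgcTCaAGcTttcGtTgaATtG
RPS7B: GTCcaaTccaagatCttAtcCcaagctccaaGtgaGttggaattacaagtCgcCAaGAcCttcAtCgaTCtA
The windows lie in coding exons at chrXI:159093-159164 (RPS27A, plus strand), chrVIII:147919-147990 (RPS27B, minus), chrVII:534270-534341 (RPS25A, minus) and chrXII:795711-795782 (RPS25B, minus). Those of RPS26A, RPS26B, RPS7A and RPS7B lie at chrVII:148232-148303 (minus), chrV:424237-424308 (plus), chrXV:505803-505874 (plus) and chrXIV:444235-444306 (minus). They hold 19 differing bases in RPS27, 20 in RPS7, 13 in RPS26 and 9 in RPS25.

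The remaining sequences show a pair that is much harder to separate. RPS24A and RPS24B differ at 5 bases even in their most different window.
RPS24A: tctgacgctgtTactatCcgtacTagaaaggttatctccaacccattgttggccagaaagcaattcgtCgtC
RPS24B: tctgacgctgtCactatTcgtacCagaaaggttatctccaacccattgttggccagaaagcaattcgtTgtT
These windows lie at chrV:306792-306863 (RPS24A, plus) and chrIX:231886-231957 (RPS24B, minus). Of the 50-base windows, 61.8% are found in 1 copy alone in RPS24, 53.2% in RPS4 and 27.9% in RPS6. Whether a read with several equally good matches was counted is not given in the labels, so values for the separate copies of RPS4, RPS6 and RPS24, among others, are uncertain. The strand setting is not given either: the introns of ASC1 and RPS22B hold the small nucleolar RNA genes SNR24 and SNR44 in the RefSeq annotation. No other member overlaps a gene of that annotation. It matched 6047 of the 7127 features counted, and overlap of members with the other features was not examined.

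The members together took 6.58% ± 0.10 (SD, n = 3) of the counts in the input, 5.47% ± 0.038 in the GFP control and 5.25% ± 0.13 in the PrA control. Their share was 2.62% ± 0.034 in basket-less pores, 1.97% ± 0.031 in all NPCs and 0.686% ± 0.017 in basket-containing pores. No library of any pore group overlapped a library of the controls or the input. The mRNAs of the large subunit (genes named RPL) followed the same order, from 7.33% ± 0.13 in the input to 0.933% ± 0.030 in basket-containing pores.

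**Figure D1:**
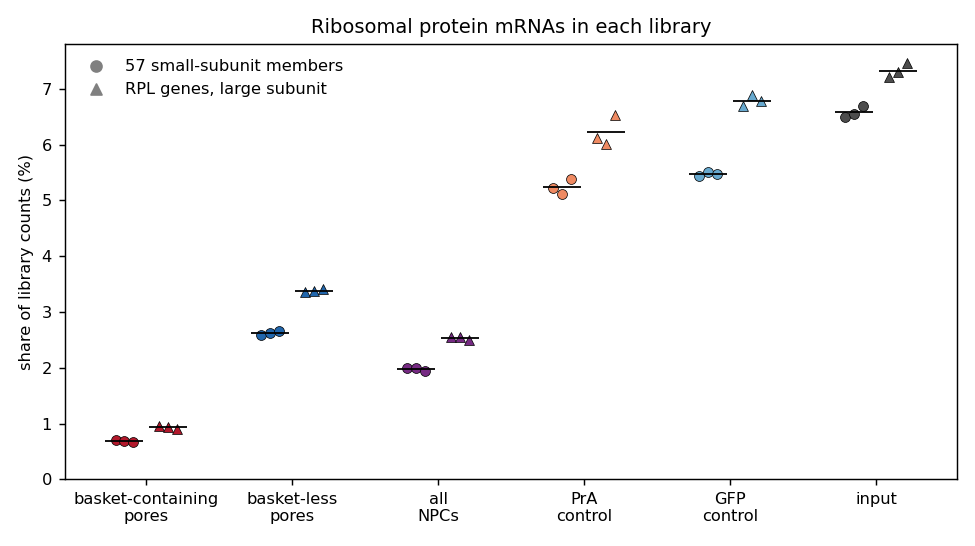
Share of all counts (%, vertical axis, from 0) in each of the 18 libraries by group, for the 57 small-subunit members (circles) and the RPL genes (triangles), with a bar at the mean of 3 libraries. Basket-containing pores have the lowest share, 0.668% to 0.701% for the members, and the input has the highest, 6.49% to 6.69%.

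Per kilobase of coding length, the members were among the most abundant mRNAs of the input, with 32 of them in the top 100 of 5773 genes and 55 in the top 500. Among the highest were RPS31, which encodes a ribosomal protein fused to ubiquitin, at 9230 CPM per kb, RPS12, a protein of the head, at 7594, and RPS2, at the mRNA entry, at 5272. The lowest were RPS28B at 116 CPM per kb, RPS9A at 188 and RPS14B at 447. The protein products of RPS28 and RPS14 are known to repress RPS28B and RPS14B respectively. The order among RPS31, RPS12 and RPS2 has no test.

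In basket-containing pores every member held a smaller share than in the PrA control. The median log2 fold change was -2.49, which leaves the median member at 17.8% of its control level, and the range ran from -3.79 to -1.19. By edgeR's quasi-likelihood test with Benjamini-Hochberg adjustment over all genes tested, 57 of 57 members were called lower, where 46.5% of all genes were. The 3 libraries of each group did not overlap for any member, but how many of all genes showed this was not counted. The median over all genes was -0.07, and over the 2081 other genes within the members' range of coding length (up to 960 bases) it was -0.95. 43.8% of all genes were called higher.

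The lowest value belonged to RPS20 (YHL015W, chrVIII:75412-75777), which encodes a head protein. It had 109, 101 and 100 CPM in basket-containing pores. The PrA control had 1493, 1519 and 1293 CPM, and the log2 fold change was -3.79 ± 0.06 (SE; n = 3 per group; edgeR adjusted p = 4.47e-26). All 3 pore libraries lay far below the controls. RPS28A, a head protein next to the mRNA exit, followed with 52.1, 54.2 and 40.6 CPM against 517, 488 and 827, or -3.64 ± 0.21. The spread there came mainly from replicate 3 of the PrA control, at 827. RPS12 stood at -3.60 ± 0.10 and RPS27B, a zinc-finger protein of the platform, at -3.53 ± 0.06.

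Other single-copy members stood at -3.37 ± 0.05 (RPS31), -3.35 ± 0.04 (ASC1), -3.09 ± 0.11 (RPS3) and -2.70 ± 0.05 (RPS13). RPS2 (-2.26 ± 0.04) and RPS15 (-2.21 ± 0.05) were the highest of these. ASC1 encodes the yeast counterpart of RACK1, a signalling scaffold on the head. RPS3 lines the mRNA entry channel, RPS13 sits in the body and RPS15 in the head near the decoding site.

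At the other end stood RPS7B (YNL096C, chrXIV:443398-444315), the B copy of a body protein, with 170, 165.9 and 154 CPM in basket-containing pores and 394, 385 and 337 in the PrA control. The 3 pore libraries were all below the controls, and the change was -1.19 ± 0.05 (edgeR adjusted p = 2.50e-17). The next smallest changes were those of RPS24B (-1.43 ± 0.05), RPS29B (-1.68 ± 0.06) and RPS10A (-1.75 ± 0.05).

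**Figure D2:**
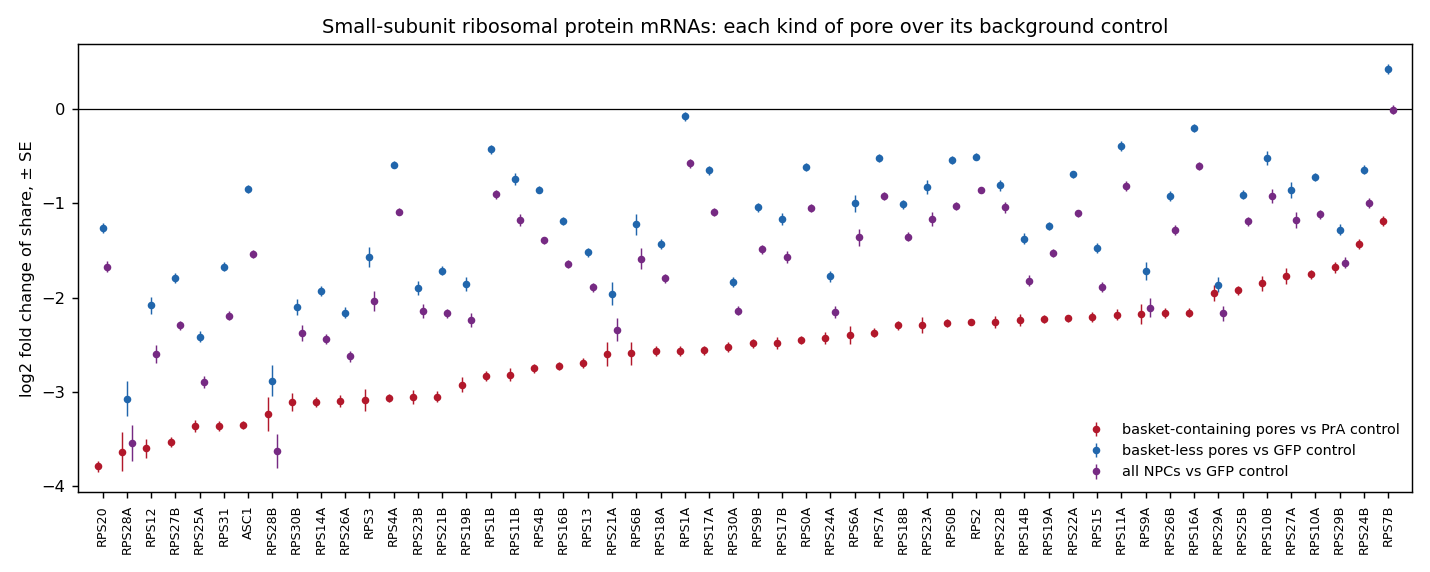
Log2 fold change of share (vertical axis, bars are ± 1 SE, n = 3 libraries per group) for 54 of the members, ordered by the change in basket-containing pores over the PrA control (red), with basket-less pores (blue) and all NPCs (purple) over the GFP control. Red points run from -3.79 to -1.19 and all lie below 0, while RPS7B is above 0 in basket-less pores at 0.43.

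In basket-less pores most members were lower than in the GFP control, by less and with more variation. The median log2 fold change was -1.04, which leaves the median member at 48.6% of the control, with a range from -3.07 to 0.43. edgeR called 55 members lower, 1 higher and left 1 uncalled, where 35.5% of all genes were called lower and 47.1% higher. The median was 0.11 over all genes and -0.36 over the other genes of the members' coding lengths.

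RPS7B was the member called higher. It had 413, 442 and 431 CPM in basket-less pores and 311, 319 and 326 in the GFP control. The groups did not overlap, and the log2 fold change was 0.43 ± 0.05 (edgeR adjusted p = 1.78e-08). It stayed called higher under the other scalings tried, from 0.16 to 0.31. RPS1A, a platform protein, had 1207, 1219 and 1242 CPM against 1244, 1327 and 1287 and was not called (-0.07 ± 0.05, edgeR adjusted p = 0.151). Its groups did not overlap, and it was called lower under each of the other scalings tried, from -0.34 to -0.19. RPS16A (-0.20 ± 0.04) came next.

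The lowest values in basket-less pores belonged to RPS28A, with 116, 121 and 115 CPM against 954, 1053 and 959, a log2 fold change of -3.07 ± 0.19. RPS28B stood at -2.88 ± 0.16, but on 43 to 48 counts in each pore library. RPS25A, a head protein needed for internal initiation on some viral RNAs, had 185.5, 184.9 and 195 CPM against 958, 1045 and 1020 (-2.42 ± 0.06), and RPS26A, which lines the mRNA exit, stood at -2.16 ± 0.06. Among single-copy members the change ran from -2.08 ± 0.09 for RPS12 to -0.50 ± 0.03 for RPS2. RPS20, the lowest member in basket-containing pores, stood at -1.26 ± 0.05 in basket-less pores, RPS31 at -1.67 ± 0.05, RPS3 at -1.57 ± 0.11, RPS13 at -1.52 ± 0.05, RPS15 at -1.47 ± 0.05 and ASC1 at -0.85 ± 0.04.

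All NPCs, from the same matrix, gave a median of -1.53 against the GFP control. Over the other genes of the members' coding lengths it was -0.50. This comparison shares its control libraries with the one before. edgeR called 56 members lower, 0 higher and left 1 uncalled, where 37.6% of all genes were called lower and 46.9% higher. RPS7B was uncalled at -0.0041 ± 0.05, with 327, 318 and 309 CPM in all NPCs, which overlapped the control. It was called lower under each of the other scalings tried (-0.29 to -0.13). The lowest members were RPS28B (-3.63 ± 0.18, on 18 to 34 counts per pore library), RPS28A (-3.55 ± 0.20), RPS25A (-2.90 ± 0.06) and RPS26A (-2.62 ± 0.06). The highest called were RPS1A (-0.57 ± 0.05) and RPS16A (-0.60 ± 0.05). Single-copy members ran from -2.60 ± 0.10 for RPS12 to -0.86 ± 0.03 for RPS2.

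Compared directly, basket-containing pores held less of every member than basket-less pores. edgeR called 57 of 57 lower and none higher, where 42.2% of all genes were called lower and 40.3% higher. The median log2 fold change was -1.52, and over the other genes of the members' coding lengths it was -0.49. The groups did not overlap for any member, but overlap was not counted over all genes. The lowest were RPS1A, with 201, 189 and 199 CPM against 1207, 1219 and 1242 (-2.64 ± 0.05), ASC1 (-2.58 ± 0.04), RPS1B (-2.52 ± 0.05) and RPS4A, a body protein (-2.49 ± 0.04). The highest were RPS29A (-0.40 ± 0.09) and RPS29B (-0.48 ± 0.06), which encode the smallest head protein, RPS28B (-0.63 ± 0.25, on 14 to 38 counts per basket-containing library) and RPS27A (-0.65 ± 0.09). RPS28B lost its call under the DESeq2 size factors (-0.50, edgeR adjusted p = 0.0665), with scaling without ribosomal protein genes (-0.53), without a filter (-0.51), without replicate 3 of the basket-containing pores (-0.22) and without replicate 1 of the basket-less pores (-0.49).

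With each kind of pore taken relative to its own background control, the difference remained for 54 members, where 39.5% of all genes were called lower and 36.6% higher. The median was -1.37, and over the other genes of the members' coding lengths it was -0.41. The lowest were RPS20 (-2.54 ± 0.08), RPS1A (-2.50 ± 0.07), ASC1 (-2.50 ± 0.06) and RPS4A (-2.48 ± 0.06). The uncalled members were RPS28A (-0.56 ± 0.27, edgeR adjusted p = 0.0762), RPS28B (-0.35 ± 0.28, edgeR adjusted p = 0.252) and RPS29A (-0.09 ± 0.11, edgeR adjusted p = 0.479). The highest called were RPS29B (-0.40 ± 0.08) and RPS9A (-0.46 ± 0.15). RPS9A lost its call under DESeq2 size factors (-0.32) and without replicate 3 of the basket-containing pores (-0.32). RPS28A was called under upper-quartile factors (-0.64) and without replicate 1 (-0.67) or 2 (-0.70) of the PrA control.

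The spread among members followed coding length in some comparisons and not in others. Between basket-containing and basket-less pores the longer members were lower: Spearman's rho over the 57 members was -0.72, and the medians of the 19 shortest (up to 393 bases), the middle 19 (408 to 471) and the 19 longest (471 to 960) were -1.20, -1.40 and -1.87. Over all 5773 genes with a coding length the relation ran the other way, with a rho of 0.45. For the change of basket-less pores over their control the short members were the lower ones, with a rho of 0.53 over the members and 0.53 over all genes. For basket-containing pores over their control rho was -0.08 over the members and 0.57 over all genes. Level in the input per kilobase gave -0.42 over the members there, -0.11 for basket-less pores over their control and -0.32 between these pores. Over all genes these were -0.35, -0.22 and -0.36. The percentage of G and C in the coding sequence gave -0.19, -0.29 and 0.03 over the members, and -0.13, -0.32 and 0.06 over all genes. These values describe points that come from the same libraries, and the members include pairs of similar copies.

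**Figure D3:**
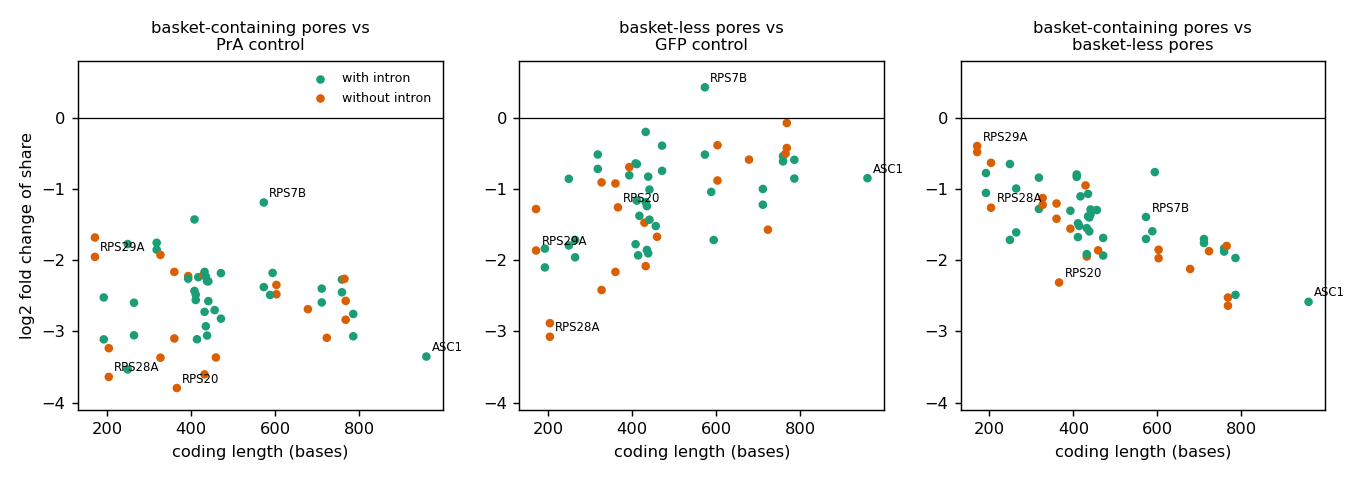
Log2 fold change of share (vertical axis) against coding length in bases (horizontal axis) for the 57 members in 3 comparisons, with intron-containing genes in green and the others in orange. Longer members lie lower in basket-containing against basket-less pores (rho -0.72), and higher in basket-less pores against the GFP control (rho 0.53).

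For basket-containing pores over their control, the 37 members with an intron had a median of -2.48 and the 20 without one -2.63. The corresponding medians for basket-less pores were -1.01 and -1.27. The 23 proteins of the head and the 34 of the body and platform had medians of -2.57 and -2.46 in basket-containing pores, and -1.26 and -0.87 in basket-less pores, each over its control.

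All NPCs lay between the other pore groups for most members, though basket-containing pores came from another matrix. Basket-less pores exceeded all NPCs on the same matrix for 56 of 57 members called by edgeR, with a median of 0.41. Of all genes, 20.3% were called higher and 22.8% lower. Over the other genes of the members' coding lengths the median was 0.14. The groups did not overlap for any member, but overlap was not counted over all genes. ASC1 had 886, 896 and 884 CPM in basket-less pores and 546, 556 and 551 in all NPCs, or 0.69 ± 0.04. RPS28B (0.75 ± 0.24), RPS4B (0.54 ± 0.04) and RPS31 (0.53 ± 0.05) were the other high members, and RPS22B (0.24 ± 0.06), RPS23B (0.24 ± 0.07), RPS25B (0.28 ± 0.05) and RPS30B (0.28 ± 0.09) the low ones. RPS28A (0.47 ± 0.20, edgeR adjusted p = 0.0713) was not called, but was with only the groups compared in the fit (0.48) and by DESeq2 (0.48). RPS28B lost its call without replicate 1 of the basket-less pores (0.61) or replicate 3 of all NPCs (0.49). RPS30B lost its call without replicate 2 (0.24) or 3 (0.26) of the basket-less pores or replicate 3 of all NPCs (0.24).

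Basket-containing pores were below all NPCs for 54 members called, where 41.7% of all genes were called lower and 38.7% higher. The median was -1.09 over the members and -0.36 over the other genes of their coding lengths. The matrix differs here as well, and kind of pore and matrix cannot be told apart. The lowest were RPS1A (-2.14 ± 0.05), RPS1B (-2.04 ± 0.05), RPS4A (-1.99 ± 0.04) and RPS20 (-1.90 ± 0.06). RPS28B (0.12 ± 0.27), RPS29A (-0.09 ± 0.09) and RPS29B (-0.13 ± 0.06) were not called, and RPS27A (-0.33 ± 0.09) was the highest member called. RPS27A lost its call under DESeq2 size factors (-0.19), without a filter (-0.21) and without replicate 3 of the basket-containing pores (-0.11). RPS29B was called lower under upper-quartile factors (-0.19), with a mean count of at least 50 (-0.14), and without replicate 2 of the basket-containing pores (-0.18) or replicate 3 of all NPCs (-0.20). RPS29A had 78.4, 76.9 and 64.1 CPM in basket-containing pores and 79.6, 77.9 and 76.6 in all NPCs, so that the groups overlapped. In the PrA control it had 259, 263 and 330.

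Against the input, edgeR called all 57 members lower in each pore group, where 45.5%, 36.1% and 37.1% of all genes were called lower and 43.9%, 44% and 44.6% higher, in the order basket-containing pores, basket-less pores and all NPCs. The medians were -2.85, -1.47 and -1.77, and over the other genes of the members' coding lengths -0.82, -0.29 and -0.40. RPS12 had 129, 129 and 133 CPM in basket-containing pores and 3028, 3232 and 3583 in the input, the lowest value at -4.65 ± 0.11. ASC1 (-4.46 ± 0.05), RPS31 (-4.29 ± 0.05) and RPS27B (-4.18 ± 0.06) followed, and RPS29B was the highest at -1.39 ± 0.06. In basket-less pores the values ran from -2.75 ± 0.08 for RPS30B to -0.31 ± 0.06 for RPS11A, and in all NPCs from -3.45 ± 0.18 for RPS28B to -0.73 ± 0.06 for RPS11A.

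The background purifications themselves differed from the input by much less, and in both directions. In the GFP control edgeR called 35 members lower and 11 higher, where 42.4% and 37.2% of all genes were, with a median of -0.28. RPS28A rose from 435, 485 and 569 CPM in the input to 954, 1053 and 959 (0.99 ± 0.17, edgeR adjusted p = 1.28e-04), without overlap. RPS14A, a platform protein, rose by 0.68 ± 0.05 and RPS26A by 0.64 ± 0.06. Others called higher, between 0.10 and 0.37, included RPS29B, RPS15, RPS29A, RPS11B, RPS26B, RPS18A and RPS30A. RPS30A lost its call with the replicate block (0.10) and on leaving out any 1 library of these groups other than replicate 2 of the GFP control (0.062 to 0.11). RPS10B (-1.07 ± 0.07), RPS1B (-1.05 ± 0.05), RPS1A (-1.04 ± 0.05) and ASC1 (-1.02 ± 0.04) fell most.

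In the PrA control edgeR called 39 members lower than in the input and 6 higher, where 41.2% and 37.5% of all genes were, with a median of -0.39. RPS1A (-1.18 ± 0.05), RPS1B (-1.17 ± 0.05), RPS17B (-1.13 ± 0.06) and ASC1 (-1.10 ± 0.04) were lowest. The 6 called higher were RPS26A, RPS11B, RPS14A, RPS29B, RPS11A and RPS15, between 0.12 and 0.37. RPS15 lost its call with only the groups compared in the fit (0.16), without replicate 3 of the PrA control (0.062) and without replicate 1 of the input (0.093). The input libraries are shared by these comparisons.

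The controls differed from each other by a median of -0.11 (PrA over GFP). edgeR called 25 members lower and 7 higher, where 16.7% and 16.1% of all genes were. The count was unstable: with only these groups in the fit it was 10 lower, and it was 13 without replicate 1 of the PrA control, 12 without its replicate 2 and 14 without replicate 2 of the GFP control. RPS28A had the largest difference, -0.70 ± 0.17, with 517, 488 and 827 CPM in the PrA control and 954, 1053 and 959 in the GFP control. RPS12 (-0.43 ± 0.09), RPS6A (-0.36 ± 0.09) and RPS21A (-0.35 ± 0.11) followed, and RPS27A (0.27 ± 0.08), RPS17A (0.23 ± 0.04), RPS7B (0.23 ± 0.05) and RPS20 (0.22 ± 0.05) were highest. RPS10A (0.20 ± 0.04), RPS7A (0.16 ± 0.04) and RPS22B (0.15 ± 0.05) were also called higher. Among these, RPS28A, RPS6A, RPS21A and RPS22B lost their calls with only these groups in the fit, and RPS7A, RPS21A, RPS22B and RPS27A on leaving out at least 1 library.

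The balance between the A and the B copy of a protein shifted in the pores. For each of the 24 pairs the log2 ratio of the A count to the B count was taken within a library, which does not depend on the scaling, and tested with limma over all 61 A/B pairs of the table. The PrA control and basket-containing pores had different ratios in 19 pairs (9 toward B, 10 toward A), where 78.7% of all 61 pairs were called. Against the GFP control it differed in 20 pairs for basket-less pores, where 86.9% were called, and in 19 for all NPCs, where 85.2% were called. Among the other 37 pairs, most of them of the large subunit, the counts were 29, 33 and 33, so changes of this kind were about as common there.

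RPS25 moved toward its B copy. Its log2 ratio was 0.40, 0.36 and 0.36 in the basket-containing libraries, 0.50, 0.46 and 0.47 in the basket-less ones and 0.30, 0.35 and 0.18 in those of all NPCs. It was 1.79, 1.81 and 1.86 in the PrA control, 1.95, 2.03 and 1.97 in the GFP control and 1.63, 1.74 and 1.68 in the input. The A copy was the higher one in every library, by much less in the 9 pore libraries, which did not overlap the other 9. The change was -1.44 ± 0.05 in basket-containing pores (limma adjusted p = 1.50e-14) and -1.51 ± 0.05 in basket-less pores (limma adjusted p = 8.63e-15).

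RPS26 changed its leading copy. The log2 ratio was -0.20, -0.23 and -0.17 in the basket-containing libraries, -0.44, -0.43 and -0.37 in the basket-less ones and -0.55, -0.47 and -0.53 in those of all NPCs. It was 0.73, 0.71 and 0.76 in the PrA control, 0.79, 0.86 and 0.83 in the GFP control and 0.35, 0.35 and 0.37 in the input. B exceeded A in all 9 pore libraries and A exceeded B in the other 9. The changes over the controls were -0.93 ± 0.03 for basket-containing pores, -1.24 ± 0.03 for basket-less pores and -1.35 ± 0.03 for all NPCs.

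RPS27 moved toward its A copy, and furthest in basket-containing pores. Its log2 ratio was 0.10, 0.29 and 0.07 in the basket-containing libraries, -1.02, -0.91 and -0.83 in the basket-less ones and -0.76, -0.88 and -0.56 in those of all NPCs. It was -1.54, -1.54 and -1.78 in the PrA control, -1.80, -1.99 and -1.76 in the GFP control and -1.94, -1.99 and -2.26 in the input. The A copy exceeded the B copy in the 3 basket-containing libraries and in none of the other 15. The change over the control was 1.77 ± 0.10 in basket-containing pores and 0.93 ± 0.10 in basket-less pores, and these changes differed by 0.84 ± 0.15 (limma adjusted p = 1.11e-04).

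RPS7 and RPS24, both proteins of the body, also moved toward B. The RPS7 ratio was 0.02, -0.15 and -0.02 in basket-containing pores and 1.13, 1.09 and 1.22 in the PrA control, a change of -1.19 ± 0.05. The RPS7 change for basket-less pores was -0.94 ± 0.05. Relative to the controls RPS24 changed by -1.0 ± 0.05 in the basket-containing libraries, -1.14 ± 0.05 in the basket-less ones and -1.15 ± 0.05 in those of all NPCs, with the limit on telling its copies apart given with its sequences. RPS14 changed by -0.86 ± 0.07 in basket-containing pores.

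RPS16 and RPS23 moved toward A. RPS23, a protein of the decoding centre, had a log2 ratio of 0.16, 0.16 and 0.20 in basket-less pores and of -0.93, -0.92 and -0.87 in the GFP control, a change of 1.08 ± 0.03. RPS16, a head protein, changed by 0.99 ± 0.07 in basket-less pores. In all NPCs the changes were 0.98 ± 0.03 for RPS23 and 1.04 ± 0.07 for RPS16. RPS1 had A above B in all 9 pore libraries and B above A in the other 9, with changes of 0.27 ± 0.02 in basket-containing pores and 0.35 ± 0.02 in basket-less pores.

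**Figure D4:**
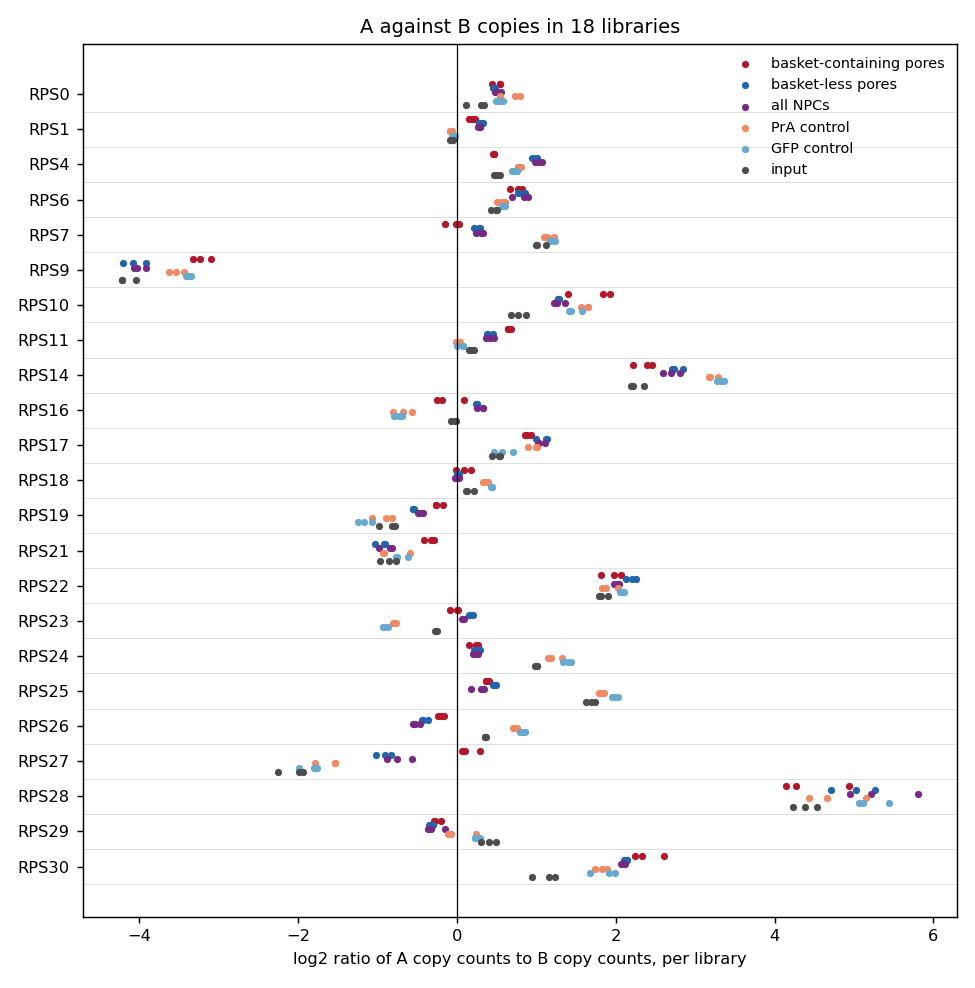
Log2 ratio of A copy counts to B copy counts (horizontal axis) in each of the 18 libraries, coloured by group, for 23 of the pairs in rows. RPS25, RPS26, RPS7 and RPS24 lie further left in the 9 pore libraries than in the controls and the input, and RPS27 lies furthest right in basket-containing pores.

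Between basket-containing and basket-less pores the ratio differed in 17 pairs, where 72.1% of all 61 pairs were called, and in 16 with the controls taken off, where 68.9% were. RPS27 changed most (1.07 ± 0.10), then RPS9 (0.85 ± 0.08), a protein near the decoding site, RPS21 (0.61 ± 0.08), RPS28 (-0.55 ± 0.24), RPS4 (-0.52 ± 0.03) and RPS10 (0.45 ± 0.10). The RPS28 value rests on the low counts of RPS28B, and its call was lost under the count test of copies and without replicate 1 (-0.40) or 2 (-0.46) of the basket-containing pores, or 2 (-0.42) or 3 (-0.54) of the basket-less pores. Also, the RPS4 copies are hard to separate. RPS9 had log2 ratios of -3.33, -3.10 and -3.23 in basket-containing pores and -4.20, -4.09 and -3.91 in basket-less pores, without overlap. Basket-less pores and all NPCs differed in 2 pairs, where 11.5% of all 61 pairs were called, and basket-containing pores and all NPCs in 18, where 73.8% were.

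Against the input, the ratio differed in 18 pairs for basket-containing pores, 22 for basket-less pores and 21 for all NPCs, where 83.6%, 83.6% and 83.6% of all 61 pairs were called. It differed from the input in 17 pairs in the PrA control, where 72.1% were called, and in 18 in the GFP control, where 73.8% were called. Between the controls it differed in 10 pairs, where 47.5% were called, and this count fell to 3 without replicate 2 of the PrA control, 6 without its replicate 1 and 5 without replicate 2 of the GFP control.

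Genes that work with the members were taken from lists that were chosen with earlier results of these data known. Of 76 RPL genes, edgeR called 75 lower in basket-containing pores over the PrA control, where 46.5% of all genes were (median -2.54), and RPL10, RPL16B and RPL25 had the smallest adjusted p, at -3.32 ± 0.05, -2.96 ± 0.04 and -2.85 ± 0.05. Against the GFP control 72 were lower and 3 higher in basket-less pores, where 35.5% and 47.1% of all genes were (median -1.10), led by RPL42A (-1.77 ± 0.05), RPL19A (-1.63 ± 0.05) and RPL43B (-1.95 ± 0.06). All 5 genes of the ribosomal stalk, which recruits translation factors, were called lower than the matched control, with medians of -3.50 for basket-containing pores, -2.42 for basket-less pores and -2.78 for all NPCs. The shares of all genes called lower in these comparisons were 46.5%, 35.5% and 37.6%. RPP0, the base of the stalk, stood at -3.05 ± 0.05 in basket-containing pores and at -0.20 ± 0.05 in basket-less pores.

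Genes for dedicated chaperones and cargo factors of the small subunit held smaller shares in pores with a basket than in those without. There 5 of 5 were called lower, where 42.2% of all genes were (median -2.16). All 5 were also called lower in basket-containing pores over the PrA control, where 46.5% of all genes were (median -1.60): TSR2, which escorts the RPS26 protein, at -3.20 ± 0.19, FAP7 (RPS14) at -1.97 ± 0.10, YAR1 (RPS3) at -1.60 ± 0.05, TSR4 (RPS2) at -1.41 ± 0.07 and LTV1, which acts at the head, at -1.24 ± 0.08. For basket-less pores over their control, 2 were lower and 3 higher, where 35.5% of all genes were called lower and 47.1% higher. LTV1 had 180, 190 and 186 CPM there and 104, 110 and 107 in the control, or 0.80 ± 0.07. TSR4 stood at 0.55 ± 0.06, YAR1 at 0.12 ± 0.04, TSR2 at -0.54 ± 0.14 and FAP7 at -1.36 ± 0.09. The median of all genes in that comparison was 0.11, so YAR1 lay at it, and other scalings were not run for these genes.

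The last list holds 12 genes for regulators of ribosomal protein genes or of ribosome production more widely. Of these, 8 were called higher and 4 lower in basket-containing pores over the PrA control. Of all genes, 43.8% were called higher and 46.5% lower there. TOR1, a growth-control kinase, had 736, 755 and 775 CPM in basket-containing pores and 152, 149 and 141 in the PrA control (2.36 ± 0.04). TOR2 (1.14 ± 0.04) rose as well, while IFH1, a co-activator of ribosomal protein genes, was lower (-1.14 ± 0.04). For basket-less pores over their control the counts were 7 up and 4 down, near the 47.1% and 35.5% of all genes, with TOR1 at 1.31 ± 0.04, DOT6 at 2.12 ± 0.08 and TOR2 at 0.63 ± 0.04. TOR1 and TOR2 are long genes, and the part of coding length in their values was not tested.

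Rap1 is the general regulator bound upstream of most ribosomal protein genes. The motif ACCCNNACA was looked for on both strands in the 500 bases before each start codon, and 18 of the 57 members held it, where 5.48% of 6008 such windows did. The windows below show it in capitals for the members RPS7A and RPS24A, whose B copies held no match, from the RefSeq R64 reference on the strand of the gene.
RPS7A: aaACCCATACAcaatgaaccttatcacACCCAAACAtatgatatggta
RPS24A: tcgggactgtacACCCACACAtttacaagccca
They lie at chrXV:505294-505341 and chrV:305975-306007. A match is a run of letters in the reference and was not tested against any measurement here.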

How the data were processed

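Poly(A)-selected RNA of 18 libraries (6 groups of 3, by the labels) was read from the deposited tables of raw counts per gene, 1 column per library. Per the submitters' processing notes, the authors used STAR, the R64 build, featureCounts and DESeq2, with settings not given in the labels. The deposited counts were analysed with edgeR 4.0.16 in R 4.3.3: filterByExpr, TMM factors, 1 quasi-likelihood fit (robust) over all libraries, 13 two-sided contrasts, Benjamini-Hochberg adjustment over 6429 genes, calls at adjusted p below 0.05. The SE was derived as the size of the log2 fold change divided by sqrt(F). The A to B ratios, log2 with 0.5 added to each count, were tested with limma 3.58.1 over the 61 pairs whose names end in a number and then A or B (33 of RPL genes, 4 others). The procedures were also run on simulated counts in which most genes and pairs did not change. Such counts do not test the scaling or the error rates in comparisons where most genes are called. Lengths are coding lengths.

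Named are ASC1 and the single-copy genes, the 4 lowest and 4 highest members per comparison (some by range only), members called against the majority or uncalled where 5 or fewer, the 6 pairs that moved most in the comparisons of pores with controls and with each other, and the 3 genes of each list with the smallest adjusted p. Some members that this rule names are counted but not reported singly here. Other genes and pairs named were chosen after their values were seen. The lists are RPL genes, the ribosomal stalk, regulators of ribosomal protein genes or ribosome production, dedicated small-subunit chaperones and cargo factors, and the head against the body and platform. The members and lists were chosen with earlier results of these data known. No pairing of libraries by replicate number was seen. Alternatives were DESeq2 1.42.0 size factors and Wald test, upper-quartile factors, scaling without ribosomal protein genes, other filters, a replicate block, only the groups compared, leaving out each library, and for pairs another pseudocount and a count test. No promoter or protein tables were used, and upstream windows were read from the genome.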

Additional observations from a re-analysis of the deposited data

Results flagged for a closer look

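An edgeR contrast of the differences compared the change over the matched control between basket-containing and basket-less pores. It called 54 members lower, where 39.5% of all genes were called lower and 36.6% higher. Among those named, the contrast was -2.50 for RPS1A, -1.76 for RPS2, -1.52 for RPS3, -2.48 for RPS4A, -0.46 for RPS9A (not called without replicate 3 of the basket-containing pores, -0.32), -1.52 for RPS12 and -1.18 for RPS13. It was -0.74 for RPS15, -2.54 for RPS20, -0.40 for RPS29B, -1.69 for RPS31 and -2.50 for ASC1, all further below the control in basket-containing pores. The matrix differs between the pores as well, and its part in these differences was not tested.

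By the same contrast in limma, the change of the A to B ratio differed in 16 of the 24 pairs. This is near the 68.9% called among all 61 pairs, and the count test of copies called 9. The difference, basket-containing minus basket-less, was 1.00 for RPS9 and 0.71 for RPS21, which moved toward A in basket-containing pores (0.31 and 0.47) and toward B in basket-less pores (-0.69 and -0.24). It was 0.84 for RPS27, which moved toward A in both, and further in basket-containing pores. It was 0.31 for RPS26, which moved toward B in both, and less in basket-containing pores. For RPS4 it was -0.58, with a move toward B in basket-containing pores (-0.31) and toward A in basket-less pores (0.26). It was -0.42 for RPS16 and -0.31 for RPS23, which moved toward A in both, and less in basket-containing pores. It was -0.31 for RPS14 and -0.25 for RPS7, which moved toward B in both, and further in basket-containing pores.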

How the results depend on the processing

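Under all alternatives run, the counts of members called kept within 1.5 times except for the PrA control against the GFP control, where 25 members lower became 10 with only those groups in the fit, and leaving out each library in turn gave 12 to 35 lower and 4 to 9 higher. Pairs called there went from 10 to 4 under the count test of copies and ran from 3 to 15 on leaving out a library. The count test also gave 9 pairs in place of 16 with the controls taken off, and 0 in place of 2 for basket-less pores against all NPCs, where leaving out a library gave 0 to 2. Over all scalings, filters and tests, the median member stayed between -2.83 and -2.47 in basket-containing pores over the PrA control and between -1.31 and -1.04 for basket-less pores against the GFP control. Upper-quartile factors moved the median of all genes by -0.34 and -0.27 in these comparisons, and DESeq2 size factors moved it by -0.12 in the second. No pairing of libraries by replicate number was seen (same-number correlations of deviations -0.161 to 0.280, different numbers -0.299 to 0.230), though these values cannot exclude it. The replicate block called 24 members lower between the controls in place of 25.

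Signs turned for values near 0. With DESeq2 size factors, scaling without ribosomal protein genes, no filter and DESeq2's Wald test, RPS29A became 0.049, 0.0055, 0.028 and 0.048 with the controls taken off, and 0.043, 0.022, 0.026 and 0.042 for basket-containing pores against all NPCs. RPS29B there became 0.0058 with the first and 0.0057 with the last, and was called lower under other settings (-0.20 to -0.14). Leaving out each library in turn gave, with the controls taken off, -0.15 to 0.12 for RPS29A and -0.59 to 0.052 for RPS28B. For basket-containing pores against all NPCs it gave -0.15 to 0.13 for RPS29A, -0.20 to 0.082 for RPS29B and -0.14 to 0.53 for RPS28B. It gave -0.025 to 0.017 for RPS7B in all NPCs against the GFP control and -0.10 to 0.014 for RPS20 in the PrA control against the input. The cause was not tested. Depth limits RPS28B, with 14 to 48 counts per pore library.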
